A study of Mus musculus with 2 samples.

Results

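S-phase cells, those copying their DNA, were chosen by the measured signal of 9 genes of DNA replication among endothelial cells of mouse tumours: Hells, Mcm3, Mcm4, Mcm5, Mcm7, Ung, Uhrf1, Dtl and Cdc6. Cells with at least 2000 detected genes were kept, the mean of the deposited natural log values of the 9 genes was taken as a score, and the highest 5% of the kept cells of both libraries together were called S-phase cells. These were 211 of 4224 kept cells, from 6194 cells in all. The control library gave 60 of them and the knockout library 151. The other 4013 kept cells are called the other cells.

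The cells came from tumours of adult C57BL/6 mice, were sorted on CD31 (a surface protein of endothelium) and were processed with droplet-based 3′ single-cell RNA sequencing. There was 1 library labelled control and 1 labelled NF2 KO. Nf2 encodes merlin, a membrane-associated protein upstream of the Hippo kinases. The labels did not state the tumour model, the number of mice, the allele or the driver of the knockout. Each library held 2 runs, numbered in the cell names, whose meaning is not stated; they are given side by side as parts of 1 sample. With 1 library per condition no test between conditions was possible, so every range in brackets is a 95% interval for counting error only, and it does not cover the spread between animals.

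Cells commit to division when cyclin E and its kinase release the E2F transcription factors from the retinoblastoma proteins, and E2F then drives the genes that license origins, feed nucleotides to the fork and package new DNA. The MCM proteins form the helicase that opens the double helix; Cdc6 and Cdt1 load it, and Cdc45 and the GINS proteins switch it on. Most endothelial cells of adult vessels rest outside the cycle, whereas tumour vessels hold dividing cells, and in sprouts the leading tip cells are known to divide less than the stalk cells behind them.

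The promoters of the choosing genes were read for the E2F site, since these genes were picked to move together. Each window ran from 250 bases before to 50 bases after the gene's start, in RefSeq on GRCm38.p6. The words searched were TTTCCCGC, TTTCGCGC, TTTGCCGC and TTTGGCGC on both strands, and matches may overlap. Of the 8 choosing genes in the promoter table, 7 held at least 1 word, Ung being the exception, and Mcm4 had no entry. Genes with more than 1 start had more than 1 window searched: Mcm7 and Uhrf1 had 2 each, of which 1 held a word. Among all 13919 genes of the data with a promoter in the table, which were 70.2% of the genes, 3.81% held one. The promoters of Hells, a chromatin remodeller, of the helicase subunits Mcm3 and Mcm5, and of Cdc6 are shown 5′ to 3′ with the matching letters in capitals; they are given because they carry the E2F word in different places, at position -62 in Hells, -153 in Mcm5 and -138 in Cdc6, and from 19 in Mcm3, relative to the start.
Hells (chr19:38930740-38931039, plus strand): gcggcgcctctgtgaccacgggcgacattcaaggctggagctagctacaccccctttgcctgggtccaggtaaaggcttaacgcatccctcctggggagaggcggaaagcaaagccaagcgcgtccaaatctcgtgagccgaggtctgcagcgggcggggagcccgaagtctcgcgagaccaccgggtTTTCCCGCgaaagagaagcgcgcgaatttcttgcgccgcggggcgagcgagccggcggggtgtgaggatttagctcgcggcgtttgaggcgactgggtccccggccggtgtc
Mcm3 (chr1:20820263-20820562, minus strand): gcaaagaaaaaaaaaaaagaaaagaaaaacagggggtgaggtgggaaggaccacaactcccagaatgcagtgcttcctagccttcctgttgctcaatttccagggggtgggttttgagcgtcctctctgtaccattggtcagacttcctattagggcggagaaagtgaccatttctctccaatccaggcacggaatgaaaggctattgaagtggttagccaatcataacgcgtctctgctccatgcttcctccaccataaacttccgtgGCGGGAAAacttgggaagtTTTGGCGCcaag
Mcm5 (chr8:75109259-75109558, plus strand): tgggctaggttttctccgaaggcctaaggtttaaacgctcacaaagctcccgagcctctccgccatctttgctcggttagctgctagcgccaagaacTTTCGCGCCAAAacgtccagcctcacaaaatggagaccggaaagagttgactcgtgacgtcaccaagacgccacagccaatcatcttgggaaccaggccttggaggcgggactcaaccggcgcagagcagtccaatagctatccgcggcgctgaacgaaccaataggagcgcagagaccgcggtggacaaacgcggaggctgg
Cdc6 (chr11:98907901-98908200, plus strand): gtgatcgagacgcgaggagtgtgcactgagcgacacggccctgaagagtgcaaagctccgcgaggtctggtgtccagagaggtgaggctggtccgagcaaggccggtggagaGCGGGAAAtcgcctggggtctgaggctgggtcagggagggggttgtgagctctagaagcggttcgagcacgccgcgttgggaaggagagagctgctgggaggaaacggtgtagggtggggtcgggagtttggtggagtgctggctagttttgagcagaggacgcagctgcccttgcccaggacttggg
Of the genes called higher in S-phase cells by the rule given further on, 463 of 568 had a promoter in the table and 16.6% of these held an E2F word. Of the genes tested 79.5%, and of those called lower 76.0%, had a promoter in the table, under the 80% needed, so the check was void for both. The 3.81% of all genes rests on a coverage of 70.2%, which is also under 80%. The 16.6% therefore has no background that meets the 80%. A match is a description of letters and not of binding.

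The choosing genes describe the selection and are given without a test. In CPM, the UMI count per 1000000 UMIs of a group of cells, Hells stood at 218 and 197 CPM in the control runs and at 208 and 213 CPM in the knockout runs of the S-phase cells, against 14.8 to 20.3 CPM in the other cells. Mcm3 stood at 212, 253, 218 and 219 CPM in the same order, against 31.0 to 33.2 CPM. Cdc6, the helicase loader, stood at 75.5, 64.4, 74.4 and 72.7 CPM, against 3.35 to 6.502 CPM. In all 9 genes every run of the S-phase cells lay above every run of the other cells, which the choice fixes. The sum of the 9 genes was 1262 CPM (1211 to 1315) in S-phase cells of the control and 1211 CPM (1178 to 1245) in those of the knockout library. It was 121 and 113 CPM in the other cells. A median of 8 of the 9 genes was detected per S-phase cell in each library, against 1 per other cell.

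The score had no gap at the cut. The lowest score among the S-phase cells was 0.570 and the highest among the other cells was 0.568, as mean natural log values. There were 35 other cells within 0.05 below the cut and 23 S-phase cells within 0.05 above it. The median score was 0.742 in S-phase cells and 0.0487 in the other cells, of which 1467 (36.6%) had no UMI of any of the 9 genes. The 5 cells just inside held 6 to 9 of the genes and the 5 just outside held 6 to 8. The class is therefore a range of a score rather than a separate group of cells.

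The share of S-phase cells was 4.27% (3.28 to 5.47) of kept control cells and 5.35% (4.55 to 6.25) of kept knockout cells. By run it was 3.74% and 4.88% in the control and 5.40% and 5.32% in the knockout library, and the intervals of the runs overlapped. The ratio of knockout to control share was 1.25 (0.923 to 1.72), an interval that holds 1. When every cell was thinned to 4000 UMIs before scoring, the order turned: 5.41% (4.29 to 6.73) of control and 4.79% (4.03 to 5.64) of knockout cells lay in the highest 5%, a ratio of 0.885. With 1 library per condition, a difference in the share of S-phase cells between conditions could not be tested. The minimum of 2000 genes kept 49.7% of control and 83.7% of knockout cells and so bears on these shares.

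**Figure D1:**
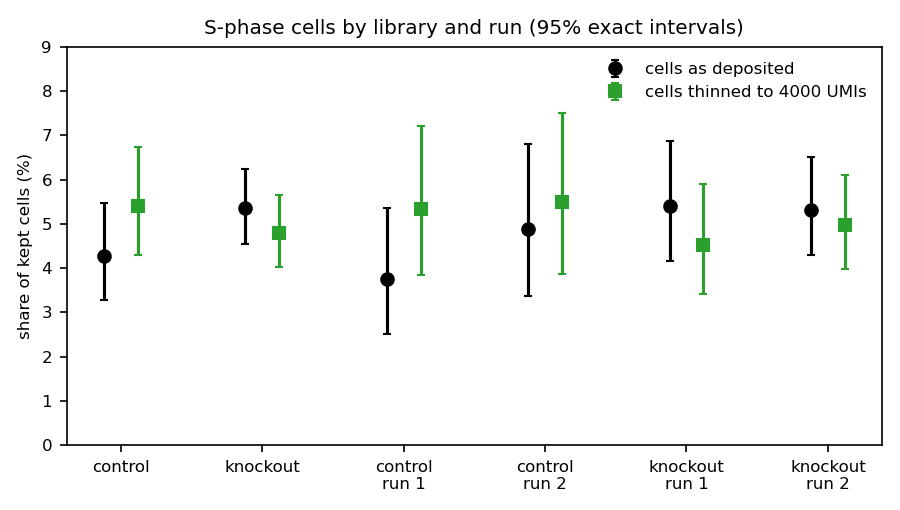
Share of kept cells called S-phase cells (%, vertical axis) in each library and each run, from deposited values (circles) and after thinning every cell to 4000 UMIs (squares), with exact Clopper-Pearson 95% intervals for counting error. The control library is lower than the knockout library with deposited values (4.27% and 5.35%) and higher after thinning (5.41% and 4.79%), and the intervals overlap throughout.

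S-phase cells were deeper than the others. Their median was 28286 UMIs per cell in control and 25185 in knockout cells, against 18659 and 17572 UMIs in the other cells, or 1.52 and 1.43 times as many. They held 1803725 UMIs in all in control and 4093151 in knockout cells. The mitochondrial share was alike, with a median over both libraries of 3.34% in S-phase cells and 3.32% in the others. The part of depth in the comparisons of CPM was not tested beyond the thinned scoring. Thinning kept 48 of the 60 control and 108 of the 151 knockout cells in the class. Of the S-phase cells, 8 control (13.3%) and 10 knockout cells (6.62%) were among the 5% of their library with the highest simulated-doublet scores, against 6.99% and 5.81% of the other cells. Only 1 cell barcode was shared between the libraries, and 1 between the runs of each.

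The label of endothelium held. None of the 19 endothelial markers passed 1.5-fold in the same direction in both libraries, and their sum was 9658 CPM in S-phase cells against 11484 CPM in the other cells of the control, and 8718 against 9015 CPM in the knockout library. Pecam1, the gene of CD31, stood at 922 and 996 CPM in the control runs and 901 and 933 CPM in the knockout runs of S-phase cells, against 1013 to 1157 CPM in the others. Markers of other cell types were lower in sum than in the other cells for most lists. The 12 monocyte and macrophage markers summed to 31.0 and 19.3 CPM in control and knockout S-phase cells, against 42.7 and 33.9 CPM. The 7 neutrophil markers summed to 40.5 and 38.4 CPM, against 70.3 and 76.9 CPM, the 8 fibroblast markers to 14.4 and 9.28 CPM, or 0.722 and 0.559 times the level in the other cells, and the 8 erythrocyte and platelet markers to 15.5 and 12.7 CPM, against 63.0 and 36.9 CPM. The 10 pericyte and smooth muscle markers summed to 101 and 42.5 CPM, against 179 and 64.1 CPM, with Cspg4, Myh11 and Notch3 at 0 in S-phase cells. The 8 T and NK cell markers had no UMI in the control S-phase cells, which allows up to 1.66 CPM, and stood at 0.977 CPM in the knockout ones. The 6 B cell markers had none either in the control and stood at 1.71 CPM in the knockout S-phase cells, against 0.790 CPM in its other cells. The 8 of 12 epithelial and melanocytic markers present in the tables summed to 7.21 and 15.4 CPM, against 7.77 and 34.9 CPM. The 6 lymphatic endothelial markers summed to 12.2 and 46.9 CPM, against 38.0 and 40.2 CPM, nearly all of it Lyve1.

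S-phase cells were then set against the other cells within each library across all genes, as a description, because the choice of cells used the same contrast. A gene was called where its CPM differed at least 1.5-fold in the same direction in both libraries and its mean was at least 20 CPM in each. Of 5682 genes tested besides the choosing genes, 568 (10.0%) were higher and 196 (3.45%) were lower in S-phase cells. The median log2 ratio over all of them was 0.01 in control and 0.05 in knockout cells. Because the minimum was set on the mean of both sides, 329 of the tested genes reached it without 20 CPM in the other cells of each library; such genes had to stand above the other cells in at least 1 library, so list counts are given with them apart and support nothing. Of the 5353 genes that reached 20 CPM in the other cells of each library, 375 (7.01%) were higher and 196 (3.66%) lower. Conversely, 209 tested genes reached the minimum without 20 CPM in S-phase cells of each library, and of the 5473 that had it there, 151 (2.76%) were lower. Hypoxia, interferon and tip cell genes held most of the lower calls among the lists.

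In the control of entry into S phase, 14 of 22 listed E2F and G1/S regulators were tested and 13 were higher, but 9 of the 14 did not reach 20 CPM in the other cells, and of the 5 that did, 4 were higher. Ccne2, a cyclin E (ENSMUSG00000028212.16, chromosome 4, 11191351 to 11204779, GRCm38), had the highest ratio of all genes that were not used in the rule. It stood at 62.7 and 80.8 CPM in the control runs and 99.2 and 84.0 CPM in the knockout runs, against 2.59 to 3.64 CPM in the other cells. The ratio was 21.0 (16.2 to 27.4) in control and 32.2 (26.5 to 39.2) in knockout cells, and its mean of 26.0 came to 15.8 with the thinned score. The other cyclin E gene, Ccne1, stood at 75.5, 62.6, 39.1 and 62.6 CPM, against 2.54 to 6.02 CPM, ratios of 13.9 and 20.9. Mybl2, a transcription factor of the cell cycle, had ratios of 13.1 and 16.8. E2f1, an activating E2F, stood at 74.1, 71.7, 60.9 and 69.8 CPM against 7.38 to 8.61 CPM. Of 10 tested G1 cyclins, kinases and inhibitors 5 were higher and 2 were lower. Ccnd1, cyclin D1, stood 1.59 and 1.64 times and its kinase Cdk4 1.95 and 1.95 times as high as in the other cells. Cdk6 was at 0.501 and 0.573 times and Btg1, an antiproliferative gene, at 0.643 and 0.522 times the level of the other cells. The inhibitors of this list went both ways: as means of both libraries, Cdkn2c was at 2.28 times and Cdkn1a at 0.789 times that level.

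At the origin and the fork, 12 of 23 listed licensing and helicase genes and 25 of 31 listed fork genes were tested, and 11 and 24 were higher. Of these, 5 and 14 did not reach 20 CPM in the other cells; of the 7 and 11 that did, 6 and 10 were higher. Cdc45 stood at 69.8 and 56.3 CPM in the control runs and 46.6 and 63.0 CPM in the knockout runs, against 4.24 to 6.37 CPM, ratios of 11.7 and 12.9. The helicase subunit Mcm2, left out of the rule, had ratios of 7.39 and 7.27, and Mcm6 of 3.96 and 4.31. Gmnn, whose protein geminin blocks a second licensing, had ratios of 6.09 and 6.497, and Cdt1, the factor geminin blocks, of 9.90 and 12.2. Pcna, the sliding clamp, stood at 175, 228, 174 and 206 CPM against 29.4 to 33.5 CPM, ratios of 6.62 and 6.17. Lig1, the ligase that joins Okazaki fragments, had ratios of 8.82 and 10.2, and Fen1, which trims their flaps, of 7.26 and 6.75. Clspn, whose protein claspin carries the alarm of a stalled fork to Chk1, stood at 159.6, 152, 117 and 166 CPM against 8.37 to 11.8 CPM. Every run of S-phase cells lay above every run of the other cells for each of these genes.

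**Figure D2:**
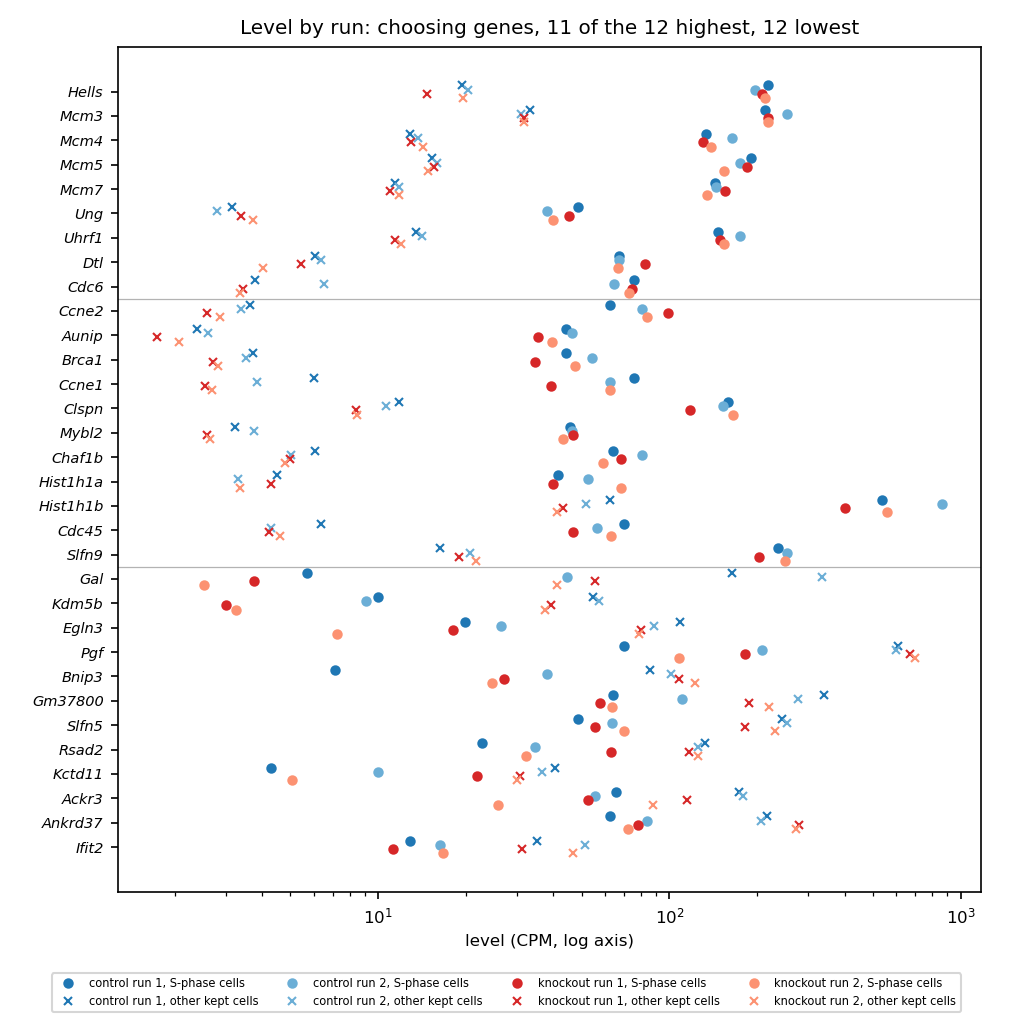
Level in CPM (horizontal log axis) of the 9 choosing genes, of 11 of the 12 other genes with the highest ratio and of the 12 with the lowest ratio, from top to bottom, in each run of S-phase cells (circles) and of the other cells (crosses). In the upper 20 genes all circles lie to the right of all crosses, by choice of the cells for the first 9, and in the lower 12 genes they lie to the left, except Gal, whose circle at 44.5 CPM lies above 1 of its crosses.

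Of 20 listed genes of nucleotide supply, 17 were tested and 15 were higher, and of the 12 that reached 20 CPM in the other cells, 10 were higher. Rrm2, the small subunit of ribonucleotide reductase, had ratios of 11.1 (9.46 to 13.0) and 11.8 (10.6 to 13.1), Tk1, thymidine kinase, of 6.86 and 7.06, and Tyms, thymidylate synthase, of 3.97 and 4.28. Of 19 listed chromatin genes, 17 were tested and 16 were higher, and of the 13 that reached 20 CPM in the other cells, 12 were higher. Chaf1b, a subunit of the chaperone that deposits histones behind the fork, stood at 64.1, 80.8, 68.4 and 59.0 CPM against 4.78 to 6.09 CPM. Dnmt1, which copies DNA methylation to the new strand and is recruited by Uhrf1, had ratios of 5.89 and 6.70. Of 30 listed genes of the replication checkpoint and of recombination, 13 were tested and called higher, but 11 of them did not reach 20 CPM in the other cells, so the count was largely fixed by the minimum. Brca1, which acts in repair by recombination, stood at 44.2, 54.4, 34.6 and 47.4 CPM against 2.70 to 3.71 CPM. Aunip had ratios of 18.2 and 19.5. Slfn9, a schlafen family gene (ENSMUSG00000069793.12, chromosome 11, 82978390 to 82991830), stood at 237, 254, 203 and 249.7 CPM against 16.2 to 21.6 CPM, ratios of 13.3 and 11.3, whereas its relative Slfn5 was among the 12 lowest, at 48.4 to 69.8 CPM against 182 to 253 CPM.

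Histone genes were more uneven. Of 15 tested, 10 were higher, 1 was lower and 4 passed neither way; of the 12 that reached 20 CPM in the other cells, 7 were higher. Hist1h1b, a linker histone gene (ENSMUSG00000058773.2, chromosome 13, 21779883 to 21780625), stood at 536 and 860.3 CPM in the control runs and 402 and 559.5 CPM in the knockout runs, against 41.2 to 62.7 CPM, ratios of 12.9 and 12.1. It had a UMI in 41 of 60 control and 90 of 151 knockout S-phase cells, against 128 of 1344 and 203 of 2669 of the shallower other cells, and the 5 highest cells gave 40.4% and 25.1% of its UMIs. Hist1h1a had ratios of 12.5 and 16.0. Hist1h2bc went the other way, at 92.6, 66.2, 33.8 and 45.2 CPM against 125 to 174 CPM. H2afz, a replacement histone made throughout the cycle, had ratios of 2.17 and 2.29. Most replication-dependent histone transcripts lack the poly(A) tail on which 3′ kits prime, and the near-identical copies of these genes can share reads, so these levels are less certain than the rest.

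G2/M genes, those of chromosome condensation and mitosis, were higher for 28 of 33 tested, and for 16 of the 20 that reached 20 CPM in the other cells, but unevenly. Top2a, the topoisomerase that untangles sister chromatids (ENSMUSG00000020914.17, chromosome 11, 98992943 to 99024189), stood at 432 and 535 CPM in the control runs and 327 and 465 CPM in the knockout runs, against 64.2 to 91.0 CPM. Its ratios were 5.55 and 6.35, and those of Mki67, the gene of the Ki-67 antigen, 3.78 and 4.19, of Cdk1 4.08 and 4.33, and of Ccna2, the cyclin A of S and G2 phases, 3.43 and 4.08. The 5 that passed neither way were Ccnb1, Ccnb2, Cdc20, Cenpa and Cenpf, genes used around mitosis. Aurkb, a kinase of mitosis, had a mean ratio of 6.18 over both libraries, and 4.81 to 15.5 over the alternatives. Whether use around mitosis bears on the ratios was not tested. Ccnb2, a B cyclin, stood at 21.4, 52.6, 33.8 and 55.7 CPM against 42.4 to 48.7 CPM, so the runs overlapped, with ratios of 0.885 (0.690 to 1.12) and 1.02 (0.880 to 1.18). Cenpa, the centromeric histone, had ratios of 0.780 (0.617 to 0.973) and 0.990 (0.859 to 1.13). With a choice of the highest 10% in place of 5%, the mean ratio of Ccnb2 was 1.70 and that of Cenpa 1.82; with the highest 2.5% that of Cenpa was 0.561.

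Only part of the S-phase cells had a high G2/M score. Of the 211, 30 (14.2%) were among the highest 5% of kept cells by the mean natural log value of the 41 G2/M genes, namely 6 of the control (10.0%), all from run 2, and 24 of the knockout library (15.9%), against 5.36% and 4.08% of the other cells. After thinning the number was 31 (14.7%). Without cells of high G2/M score, the ratio of S-phase to other cells was larger for several genes: 15.8 for Top2a, 24.95 for Clspn, 27.4 for Mybl2, 22.4 for Brca1, 20.1 for Cdc45 and 44.7 for Aunip, as means of both libraries. It was 40.4 for Hist1h1a, 32.5 for Hist1h1b, 21.6 for Rrm2, 13.3 for Tk1, 7.58 for Mki67, 7.90 for Cdk1 and 7.76 for Ccna2. Top2a, Mki67, Cdk1 and Ccna2 are among the 41 genes of the G2/M score. The removal, which took out 181 of the other cells, thus acted on their level directly, and their larger ratios support nothing. It also changed the cells against which the rest of the named genes were set. The part of this in the larger ratios of those genes was not tested. Taking the highest 10% of S-phase scores in place of 5% gave a ratio of 29.4 for Ccne1. Of the promoters of G2/M genes, 27 of 35 (77.1%) held TTTGAA, the core of the CHR element of mitotic genes, on either strand, against 15.8% of all promoters and none of the 8 of the choosing genes, while 2.86% held an E2F word.

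**Figure D3:**
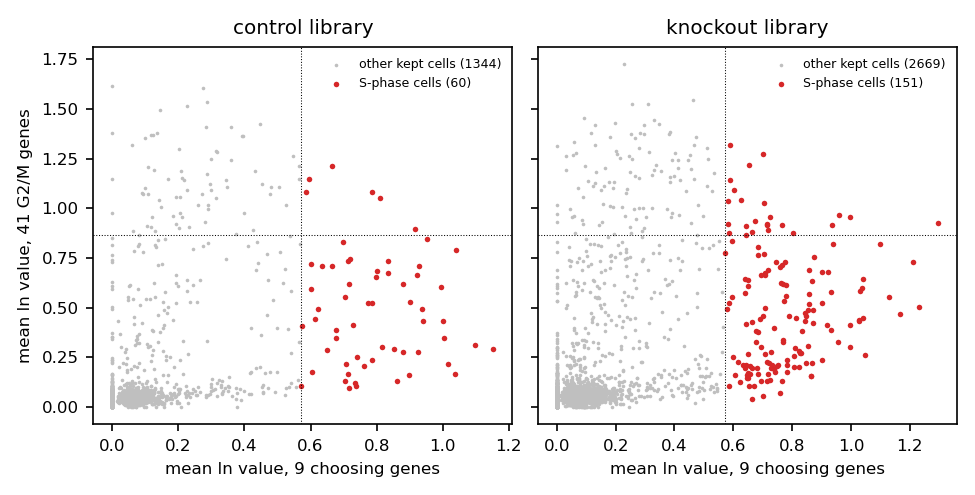
Each kept cell by its mean natural log value of the 9 choosing genes (horizontal axis) and of the 41 G2/M genes (vertical axis), in the control and the knockout library; red points are S-phase cells and grey points the other cells, and dotted lines mark the cut of each score. The S-phase cells spread from low to high G2/M scores, and 30 of 211 lie above the G2/M cut.

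Genes of ribosome building were also higher, more modestly: 12 of 20 tested, with a median log2 ratio of 0.84 and 0.77. Npm1, nucleophosmin of the nucleolus, stood at 1982 and 1841 CPM in the control runs and 2175 and 2067 CPM in the knockout runs, against 959.9 to 1276 CPM, ratios of 1.88 and 1.71. Srm, spermidine synthase, had ratios of 2.30 and 2.42, and Ncl, nucleolin, of 1.88 and 1.85. Myc itself was at 0.947 (0.710 to 1.24) and 0.941 (0.812 to 1.09) times the level of the other cells. Of the S-phase cells, 73 (34.6%) were among the highest 5% by this list, and 26.5% after thinning.

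**Figure D4:**
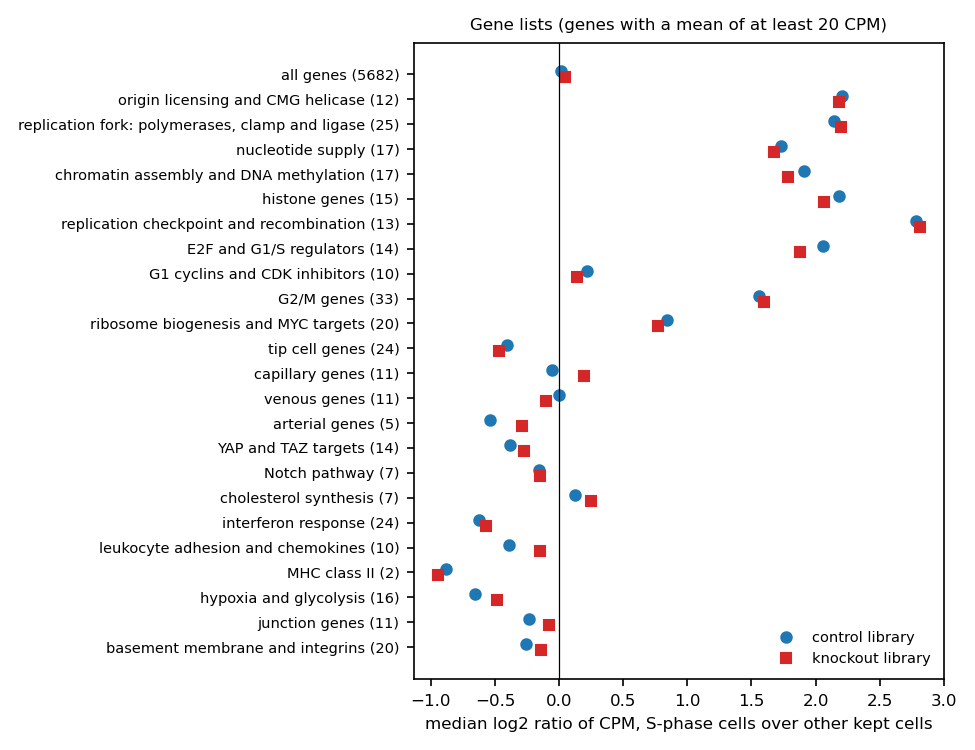
Median log2 ratio of CPM, S-phase cells over other cells (horizontal axis), of each gene list in the control (circles) and the knockout library (squares), with the number of tested genes in brackets. Lists of DNA replication lie between 1.68 and 2.81, with genes that reached the minimum only through S-phase cells included, ribosome genes at 0.84 and 0.77, and hypoxia and interferon genes between -0.66 and -0.49, around an all-gene median of 0.01 and 0.05.

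Of 16 tested hypoxia and glycolysis genes, 7 were lower in S-phase cells and none was higher, with medians of -0.66 and -0.49, beside the 3.45% called lower among all genes, and 6 of the 15 that reached 20 CPM in S-phase cells were lower. Egln3, a prolyl hydroxylase induced by low oxygen (ENSMUSG00000035105.5, chromosome 12, 54178981 to 54203860), stood at 19.9 and 26.3 CPM in the control runs and 18.0 and 7.24 CPM in the knockout runs, against 78.4 to 109 CPM. It was 4.12-fold and 7.34-fold lower. Bnip3, a receptor that marks mitochondria for removal, stood at 7.12, 38.1, 27.1 and 24.6 CPM against 86.1 to 122 CPM, and its mean ratio of 0.245 came to 0.134 without control run 2. Ankrd37 stood at 62.7 to 83.5 CPM against 206 to 279.6 CPM. Slc2a1, the glucose transporter GLUT1, was 2.27-fold and 1.88-fold lower. No S-phase cell was among the highest 5% of kept cells by the hypoxia list, 0 of 211, which allows a share of up to 1.42%; after thinning it was 1 cell.

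Tip cell genes were lower for 9 of 24 tested and higher for 1. Pgf, placental growth factor (ENSMUSG00000004791.7, chromosome 12, 85166635 to 85177790), stood at 69.8 and 209 CPM in the control runs and 181 and 108 CPM in the knockout runs, against 602 to 697 CPM. It was 3.92-fold (3.48 to 4.42) and 5.21-fold lower, and its mean ratio of 0.221 was 0.148 without control run 2. Esm1, a secreted proteoglycan of tip cells, stood at 368, 694, 616 and 382 CPM against 710.3 to 1666 CPM, 1.51-fold lower in the control and 3.14-fold lower in the knockout library. Apln, the ligand apelin, was 1.60-fold lower in both libraries, while its receptor Aplnr, the exception, stood at 235 and 129 CPM in the control runs and 42.1 and 104 CPM in the knockout runs, against 24.8 to 66.7 CPM, so that knockout run 1 overlapped the other cells, with ratios of 2.67 (2.36 to 3.02) and 2.11 (1.87 to 2.36). Dll4, the Notch ligand of tip cells, was 1.57-fold lower in both. Just 1 S-phase cell (0.474%) was among the highest 5% by the tip list. Gal, the neuropeptide galanin, had the lowest ratio of all and was 8.60-fold and 15.8-fold lower, but with 53 and 12 UMIs, 58.5% of the control ones from a single cell; its mean ratio of 0.0859 ran from 0.0318 to 0.299 over the alternatives, among them 0.0469 without control run 2. Kdm5b, a histone demethylase, stood at 9.97, 9.07, 3.01 and 3.26 CPM against 37.6 to 57.3 CPM. The rest of the 12 lowest, Gm37800, Kctd11 and Ackr3, a scavenger receptor of chemokines, were at 0.303 and 0.296, at 0.202 and 0.347 and at 0.337 and 0.353 times the level of the other cells.

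Interferon genes were lower for 10 of 24 tested, for 7 of the 21 that reached 20 CPM in S-phase cells, and higher for none, with medians of -0.62 and -0.57. Rsad2, whose product viperin is antiviral, stood at 22.8 and 34.5 CPM in the control runs and 63.2 and 32.2 CPM in the knockout runs, against 117 to 133 CPM, 4.31-fold and 2.89-fold lower. Ifit2, another antiviral gene, was 2.91-fold and 2.77-fold lower. Ifit and Slfn genes have close relatives with which they can share reads, so their levels are less certain. Gbp2, a guanylate-binding protein gene, was 2.70-fold and 1.86-fold lower, and Cxcl9, a chemokine that draws T cells, 2.75-fold and 1.52-fold. Other vessel lists had few calls: 1 of 11 capillary genes (Car4, higher), 0 of 11 venous genes, 1 of 5 arterial genes (Edn1, lower), 3 of 14 YAP and TAZ targets (Ctgf, Gadd45a and Tgfb2, all lower), 1 of 7 Notch genes (Dll4, lower), 1 of 7 cholesterol genes (Idi1, higher), 0 of 11 junction genes, 1 of 10 adhesion and chemokine genes (Cxcl2, lower) and both MHC class II genes tested (Cd74 and H2-Ab1, lower). Of the 12 YAP and TAZ targets that reached 20 CPM in S-phase cells, 1 was lower. Of the 6 cholesterol genes that reached 20 CPM in the other cells, none was higher. Of 20 basement membrane and integrin genes, Col15a1 was higher and Fn1, Itgav and Nid2 were lower. For Car4 the mean ratio of 2.13 came to 1.04 without control run 2, for Ctgf that of 0.601 came to 0.299, and for Edn1 that of 0.575 came to 0.368.

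The second comparison set S-phase cells of the knockout library against those of the control. With 1 library per condition, loss of Nf2 cannot be told apart from differences between libraries or animals. Nf2 had 48 UMIs in control and 84 in knockout S-phase cells. It stood at 29.9 and 24.5 CPM in the control runs and 17.3 and 22.1 CPM in the knockout runs, a ratio of 0.771 (0.535 to 1.12), against 0.959 (0.869 to 1.06) in the other cells. Which exons were deleted is not stated, and a 3′ tag need not fall in them, so the level is no check of the genotype. A gene was called where the ratio was at least 1.5 either way, its interval excluded 1 and its mean was at least 20 CPM. Of 6039 genes tested, 224 (3.71%) were higher and 303 (5.02%) lower in knockout S-phase cells, with an all-gene median log2 ratio of -0.01. Of the 5853 genes that reached 20 CPM in the control cells, 2.73% were higher, and of the 5866 that did in the knockout cells, 3.85% were lower. The same rule called 171 (2.94%) higher and 315 (5.42%) lower of 5808 genes in the other cells. The values of both are set side by side, and whether they differ was not tested.

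Replication genes were nearly level between the libraries in S-phase cells and in the other cells. None of the 9 choosing genes, 17 licensing genes, 27 fork genes or 18 chromatin genes tested was called, and the median log2 ratios were -0.02, -0.06, -0.00 and -0.13; for the choosing genes the common cut bears on this. In the other cells the medians were -0.09 for 7 licensing, -0.01 for 12 fork and 0.06 for 13 chromatin genes tested, with 1 fork gene lower. In S-phase cells Hells had a ratio of 1.03 (0.911 to 1.17) and Pcna of 0.943 (0.833 to 1.07). In nucleotide supply 1 of 17 was higher, Ctps, CTP synthase, at 74.1 and 88.0 CPM in the control runs and 142 and 143 CPM in the knockout runs, a ratio of 1.72 (1.44 to 2.08) against 2.58 in the other cells. Among 18 E2F and G1/S regulators, Cdca7 was higher at 1.69 (1.29 to 2.26), and 1.19 without control run 2, and Rb1, the retinoblastoma gene, was lower at 0.602 (0.415 to 0.878), and 0.812 without control run 2, 0.703 without knockout run 1 and 0.391 without knockout run 2. Of these regulators, 17 reached 20 CPM in the knockout cells, and none of the 17 was lower. Brip1 was the 1 lower of 17 checkpoint genes, at 0.655 (0.490 to 0.881), with 0.783 without knockout run 1, 0.682 without control run 1 and 0.390 without knockout run 2. Of 20 histone genes Hist1h3c was higher (1.63) and Hist1h1d (0.583) and Hist1h2bc (0.543) were lower; without control run 1 Hist1h3c came to 1.31 and without control run 2 to 2.63, and Hist1h1d without control run 2 to 0.701. Of 10 G1 genes Btg2, an antiproliferative gene, was lower at 0.638 (0.557 to 0.732), with 0.676 without control run 1 and 0.689 without knockout run 1.

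Of 39 G2/M genes tested, Ccnb1 was higher (1.51, 1.09 to 2.11) and Kif20a, a kinesin of cell division, lower (0.661, 0.449 to 0.982), and both calls were lost in several alternatives: Ccnb1 ran from 0.765 to 2.26, with 1.24 without control run 1 and 1.14 without knockout run 2, and Kif20a from 0.472 to 0.910, with 0.910 without control run 2, 0.752 without knockout run 1 and 0.472 without knockout run 2. Of the 38 G2/M genes that reached 20 CPM in the knockout cells, none was lower. Of 20 ribosome genes Gnl3, Myc and Bop1 were higher, at 1.60, 1.58 and 1.65, with a list median of 0.28 (0.29 in the other cells). Gnl3 came to 1.20 without control run 2 and Bop1 to 1.48 without knockout run 1, and Myc ran from 1.29 to 2.46.

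The 3 highest ratios were those of Ankrd1, Ccl2 and Col8a1. Ankrd1, which is a widely used readout of YAP activity (ENSMUSG00000024803.9, chromosome 19, 36111961 to 36120099), had 1 UMI in 60 control S-phase cells and 183 UMIs, in 27 of 151 cells, in the knockout library; of the other cells 60 of 1344 and 564 of 2669 had a UMI. After thinning to 4000 UMIs, 5.96% of knockout S-phase cells and 11.2% of the other knockout cells had one. It stood at 0 and 0.907 CPM in the control runs and 66.9 and 34.0 CPM in the knockout runs; 0 UMIs in control run 1 allow up to 4.27 CPM. The ratio was 80.6 with an interval of 14.3 to 3202, against 6.55 (5.92 to 7.26) in the other cells, and it ran from 4.32 with a lower minimum of detected genes to 165 as a mean over cells; it was 5.77 with the thinned score, 6.66 with the highest 10%, 14.5 with the highest 2.5%, 6.31 with linear scores and 5.22 with the highest 5% of each library. It was 49.3 without control run 1, while without knockout run 1 it was 61.4 and the gene was under the 20 CPM needed. Of its knockout UMIs, 71.6% came from 5 cells.

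Ccl2, a chemokine that draws monocytes (ENSMUSG00000035385.5, chromosome 11, 82035571 to 82037453), stood at 78.4 and 33.6 CPM in the control runs and 1071 and 678 CPM in the knockout runs, a ratio of 15.8 (12.8 to 19.7) against 1.99 (1.94 to 2.04) in the other cells. All knockout runs lay above all control runs, which the rule for naming these genes required. A single cell held 42.4% of the control UMIs; the ratio was 24.0 without control run 1, 10.3 without control run 2, 9.38 with the highest 5% of each library and 2.91 with the highest 10%. Col8a1, a short-chain collagen, stood at 5.70, 10.9, 135 and 94.5 CPM, a ratio of 12.1 (7.40 to 21.4) against 3.62, and 6.51 to 18.9 over the alternatives, with 18.9 without control run 2. Bgn, the matrix proteoglycan biglycan, stood at 4.27, 16.3, 90.2 and 66.6 CPM, a ratio of 6.38 (4.10 to 10.5) against 5.07, and 17.4 without control run 2. Rgs2, a brake on G protein signals, had a ratio of 5.85 (3.76 to 9.61) against 4.40, and 11.96 without control run 2. Edn1, endothelin 1, stood at 32.8, 99.8, 338 and 375 CPM, a ratio of 4.92 against 4.92 in the other cells, and 11.1 without control run 2. Cxcl12, a chemokine for CXCR4-bearing cells, stood at 64.1, 57.2, 249 and 337 CPM, a ratio of 5.15 (4.22 to 6.32), and 3.26 with the highest 10%.

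Also among the 12 highest were Csf1, the macrophage growth factor, at 4.71 (3.15 to 7.34), Ppp1r14a, an inhibitor of myosin phosphatase, at 4.52 (2.70 to 8.09), Cd14, a co-receptor for bacterial lipopolysaccharide, at 4.46 (2.70 to 7.83), and Selp, P-selectin, at 3.91 (3.19 to 4.82). In the other cells the ratios of these genes were 2.93, 1.83, 2.53 and 3.07. Selp stood at 58.4 and 59.0 CPM in the control runs and 192 and 248 CPM in the knockout runs. With the highest 2.5% Csf1 came to 3.12, Ppp1r14a to 7.15 and Cd14 to 3.56 under the 20 CPM needed, and with the thinned score Ppp1r14a came to 2.75 and Cd14 to 2.64.

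On the lower side, Unc5b, a netrin receptor (ENSMUSG00000020099.8, chromosome 10, 60762593 to 60831581), stood at 35.6 and 46.3 CPM in the control runs and 4.51 and 6.15 CPM in the knockout runs. It was 7.50-fold lower (4.65 to 12.5), against 4.78-fold in the other cells. Ildr2 (ENSMUSG00000040612.13, chromosome 1, 166254139 to 166316823) stood at 51.3, 94.4, 18.0 and 7.96 CPM and was 6.91-fold lower (4.92 to 9.86), against 8.77-fold; its ratio of 0.145 was 0.219 without control run 2 and 0.232 without knockout run 2. Tmem255a was 6.10-fold lower and Ift122, a subunit of the transport machinery of cilia, 5.26-fold (3.94 to 7.08); the ratio of Ift122, 0.190, was 0.326 without control run 1 and 0.115 without control run 2. Tmem255a was under the 20 CPM needed with the highest 2.5% (ratio 0.444) and with linear scores (0.232). Kcnj8 and Abcc9, the channel and the receptor subunit of an ATP-sensitive potassium channel and also pericyte markers, stood at 55.6 and 46.3 CPM and at 38.5 and 39.0 CPM in the control runs, against 12.8 and 8.69 CPM and 10.5 and 9.41 CPM in the knockout runs. They were 4.98-fold and 3.97-fold lower, and without cells that carried markers of other types the ratios of 0.201 and 0.252 came to 0.298 and 0.323, with both genes under the 20 CPM needed.

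**Figure D5:**
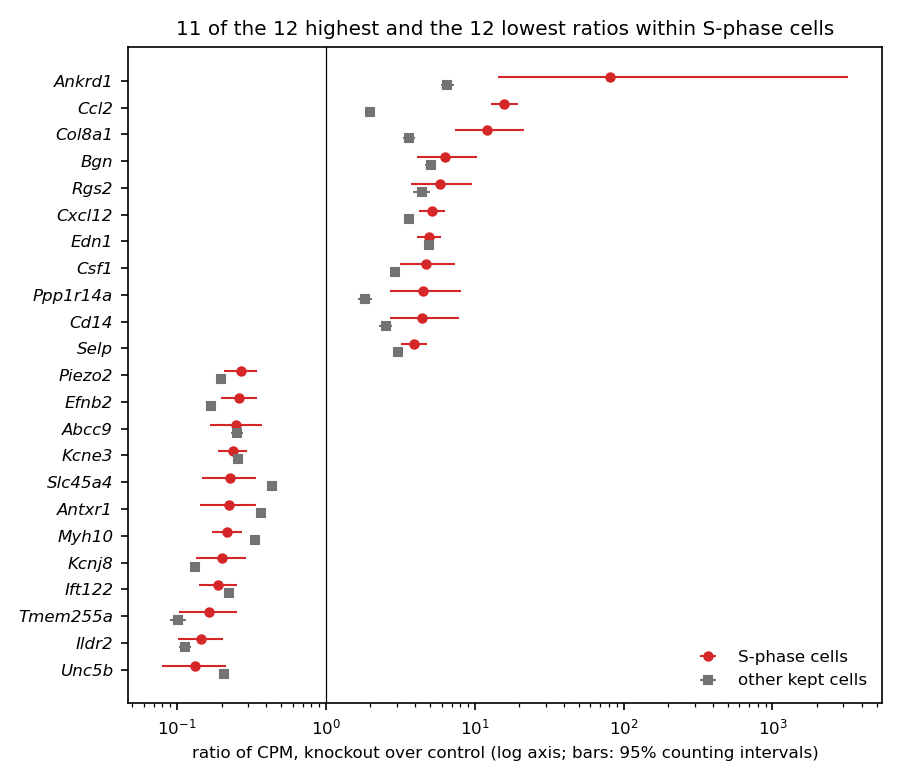
Ratio of CPM, knockout over control (horizontal log axis), of 11 of the 12 genes with the highest and of the 12 with the lowest ratio within S-phase cells (red circles), with the same ratio in the other cells (grey squares) and exact 95% counting intervals. Ankrd1, from 1 control UMI, has an interval from 14.3 to 3202; Ccl2 has 15.8 in S-phase cells and 1.99 in the other cells, and Edn1 4.92 in both.

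Also among the 12 lowest were Myh10, a nonmuscle myosin, 4.58-fold lower (3.62 to 5.82), Antxr1, an anthrax toxin receptor of tumour vessels, 4.47-fold, Slc45a4 4.42-fold, Kcne3, a potassium channel subunit, 4.20-fold (3.37 to 5.25), Efnb2, the arterial ephrin (ENSMUSG00000001300.16, chromosome 8, 8617434 to 8661242), 3.82-fold (2.90 to 5.05), and Piezo2, a mechanically gated channel, 3.72-fold (2.90 to 4.80). In the other cells they were 2.96-fold, 2.72-fold, 2.28-fold, 3.88-fold, 5.84-fold and 5.06-fold lower. Efnb2 stood at 72.7 and 83.5 CPM in the control runs and 13.5 and 24.2 CPM in the knockout runs. Without knockout run 2 the ratio of Myh10, 0.218, was 0.345 and that of Efnb2, 0.262, was 0.171, and Slc45a4 was under the 20 CPM needed without control run 2.

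Among the lists, leukocyte adhesion and chemokine genes held 9 higher of 12 tested, with a median log2 ratio of 1.29, against 0.95 in the other cells and -0.01 over all genes; 3.71% of all genes were called higher. Of the 12, 3 reached the minimum through the knockout cells alone, and of the other 9, 6 were higher. Besides those named, Icam1, an adhesion molecule for integrins of leukocytes, stood at 84.1 and 76.2 CPM in the control runs and 139 and 195 CPM in the knockout runs, a ratio of 2.23 (1.86 to 2.68). Ackr1, a chemokine receptor of venules, had 3.68 (2.38 to 5.94), which was 2.35 without control run 1 and 32.9 without control run 2. Cholesterol genes were higher for 9 of 12 tested, with a median of 0.99 (0.84 in the other cells), but 5 of the 12 reached the minimum through the knockout cells alone, and of the other 7, 5 were higher. Hmgcs1, an early enzyme of the pathway, stood at 24.2, 22.7, 66.2 and 53.2 CPM, a ratio of 2.47 (1.77 to 3.51) against 1.28 (1.19 to 1.37), Idi1 had 2.20 (1.70 to 2.88) against 2.37, and Cyp51 had 2.14 against 2.37.

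YAP and TAZ targets were higher for 6 of 14 tested and lower for 2, with a median of 0.41 in S-phase and other cells alike; of the 12 that reached 20 CPM in the control cells, 4 were higher. Cyr61, a matricellular target, stood at 247 and 356 CPM in the control runs and 647 and 561 CPM in the knockout runs, a ratio of 1.88 (1.72 to 2.06) against 1.91. Amotl2, which encodes an angiomotin, had 2.35 (1.76 to 3.19), Tgfb2 2.19 (1.47 to 3.36) and Ctgf 1.63 (1.45 to 1.82), the last with 1.10 without control run 1 and 6.44 without control run 2. The lower ones were Nt5e, an ecto-nucleotidase, at 0.351 (0.289 to 0.427), and Igfbp3, which binds insulin-like growth factors. Igfbp3 stood at 3312 and 4198 CPM in the control runs and 2098 and 1890 CPM in the knockout runs, a ratio of 0.508 (0.492 to 0.525) against 0.326 in the other cells. The sum of the list thus went against its median, from 5407 CPM in control to 4199 CPM in knockout S-phase cells (0.777) and from 8306 to 5095 CPM in the other cells (0.613).

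Notch genes were lower for 3 of 7 (Dll4, Notch1 and Hes1), beside 5.02% of all genes, with a median of -0.58. In the other cells 5 of 8 were lower, with a median of -0.62. Dll4 stood at 135, 157, 88.0 and 89.8 CPM, a ratio of 0.600 (0.511 to 0.705), the same as in the other cells; Notch1 at 0.646 came to 0.707 without control run 2, and Hes1 at 0.585 to 0.675 without knockout run 2. Tip cell genes were lower for 11 and higher for 2 of 25, with a median of -0.51, against 11 lower and 3 higher of 25 and -0.56 in the other cells. Of the 24 that reached 20 CPM in the knockout S-phase cells, 10 were lower. Apln was higher at 1.88 (1.75 to 2.01) and Aplnr lower at 0.491 (0.420 to 0.575). Esm1 was not called, at 0.807 (0.748 to 0.872), whereas it was 1.68 (1.65 to 1.70) in the other cells; its ratio ran from 0.659 to 1.25 over the alternatives. All 3 MHC class II genes tested were lower, with a median of -1.66, as were all 5 tested in the other cells, with a median of -1.60. Of the 3, 1 reached the minimum through the control cells alone, and the other 2 were lower. Cd74, the invariant chain, stood at 135, 231, 11.3 and 85.4 CPM in S-phase cells. Its ratio of 0.316 (0.268 to 0.373) was 0.0581 without knockout run 2. Of 20 basement membrane and integrin genes 7 were lower and 2 higher, with a median of -0.53, against 10 lower and 2 higher of 20 and -0.58 in the other cells.

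The remaining lists held few calls or mixed ones. Of 12 venous genes 4 were higher and 2 lower, of 12 capillary genes 2 were higher and 3 lower, and of 8 arterial genes 3 went each way. Of the 11 venous genes that reached 20 CPM in the control cells, 3 were higher. Of the 11 capillary and 7 arterial genes that reached it in the knockout cells, 2 of each list were lower. Of 11 junction genes Cldn5, a tight junction claudin, and Jup were lower; Cldn5 stood at 721 and 515 CPM in the control runs and 217 and 234 CPM in the knockout runs, 2.61-fold lower (2.39 to 2.85) against 3.84-fold in the other cells. It was with Sox18 also 1 of the 2 lower of 19 endothelial markers. Of 15 hypoxia genes 1 was lower, Ndrg1. Of 21 interferon genes 4 were higher (Cxcl9, Cxcl10, Gbp2 and Isg15), and these calls rested on knockout run 2: Cxcl9 stood at 358 and 667 CPM in the control runs and 441 and 1014 CPM in the knockout runs, so the runs of the libraries overlapped. Without knockout run 2 the ratios of 1.51, 1.53, 1.63 and 1.57 were 0.807, 0.705, 0.894 and 1.02. The capillary gene Car4, higher at 1.88, was 0.933 without knockout run 2, 1.23 without control run 1 and 11.3 without control run 2. Lyve1, also a lymphatic marker, was higher at 3.83 (2.45 to 6.25), while Prox1, the factor that defines lymphatic endothelium, had no UMI in any S-phase cell, which allows up to 1.66 and 0.733 CPM in the control and knockout cells.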

How the data were processed

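Single-cell 3′ libraries were processed with Cell Ranger 3.0.0 and Seurat 3.1.1 on mm10, per the submitters' processing notes. The authors deposited natural log values per gene and cell: the values are ln of 1 plus the UMI count per 10000 UMIs of the cell, as the deposited tables show. All values above 0 gave whole UMI counts within 0.01 UMI, over 19831 genes. Counts were summed over the cells of a class and given as CPM with exact Poisson intervals, ratios with exact conditional intervals and shares with Clopper-Pearson intervals, all at 95%. The intervals cover counting error only, since each condition had 1 library. Python 3.11.15, numpy 2.4.6, scipy 1.17.1, pandas 2.3.3, scanpy 1.11.5 and matplotlib 3.10.9 were used. The calls were checked on simulated counts with counting error only. That check held no spread between cells or runs and so does not cover it. Doublets were scored by simulation but not removed, because the automatic threshold marked 0.0% of cells. The genes named were the 12 with the highest and the 12 with the lowest ratio in each comparison (between conditions, only with all pairs of runs on the same side), up to 4 of each list by level and up to 2 by ratio on each side, and Nf2; others were chosen after their values were seen. Some genes that this rule names are not reported here. The class, the gene lists and the tests were chosen with earlier results of these data known.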

Additional observations from a re-analysis of the deposited data

Results flagged for a closer look

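Ccl2 was the 1 gene of 5682 tested whose ratio of S-phase to other cells lay on opposite sides of 1 in the libraries, past 1.5-fold in each library and with both of its runs on the same side. The ratio was 0.201 (0.162 to 0.246) in the control, with 0.417 and 0.107 in its runs, and 1.59 (1.54 to 1.65) in the knockout library, with 2.33 and 1.28 in its runs. The difference between the libraries was not tested. The control S-phase cells held 92 UMIs of Ccl2, 42.4% of them in 1 cell. The mean ratio of both libraries, 0.566, was 0.997 with the highest 10%, 0.767 with the highest 5% of each library, 0.413 without control run 1 and 0.815 without control run 2.

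The cells with fewer than 2000 detected genes, which entered no comparison, also held UMIs of the 9 choosing genes. Their sum was 134 CPM (121 to 149) in 1422 control cells and 124 CPM (107 to 142) in 548 knockout cells, above the limit that a count of 0 allows. Of these cells, 11 control (0.774%) and 8 knockout cells (1.46%) had a score above the cut.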

How the results depend on the processing

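No paired analysis was possible because each condition had 1 library and the runs carry no stated pairing. For S-phase against other cells, genes called lower, 196, came to 129 with the highest 10% and 109 with the thinned score. The share ratio of 1.25 was 0.885 with the thinned score. For knockout against control, genes called lower, 303, came to 462 without knockout run 2. A fold of 2 called 281 higher and 33 lower between cell classes and 57 and 83 between conditions. A minimum of 5 CPM called 962 and 397, and 422 and 547, and a minimum of more than 3 UMIs called 1441 and 1530, and 518 and 627. Log2 ratios between conditions that turned were Cxcl10, -1.20 with the highest 2.5% and -0.50 without knockout run 2, Ccnb1, -0.39 with the highest 2.5% and -0.17 with the thinned score, and, without knockout run 2, Gbp2 at -0.16, Cxcl9 at -0.31 and Car4 at -0.10. The causes were not tested. By the bounds of their counting intervals, 483 of the other pairs of a gene ratio and an alternative moved and 3174 did not between conditions. Between cell classes 229 moved and 3172 did not. A changed fold, CPM minimum or UMI minimum leaves a ratio as it was. The pairs of these alternatives could not move, so the counts overstate how stable the ratios were. With 60 control cells, small differences in rare transcripts were not detectable.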
